A study of Homo sapiens with 6 samples.

Results

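The ERK pathway feedback genes are the transcripts that a cell makes more of when ERK signalling is active and whose proteins mostly turn that signalling down again. The 10 members were chosen by name: the MAP kinase phosphatases DUSP1, DUSP4, DUSP5 and DUSP6, the Sprouty genes SPRY2 and SPRY4, the Sprouty-related genes SPRED1 and SPRED2, and the ETS transcription factors ETV4 and ETV5. All 10 were found once each among the 33900 genes of the table. The RNA came from LX-2, an established human hepatic stellate cell line recorded as wild type, and every value therefore describes 1 line at 1 dose and 1 time point. Of the 6 samples, 3 were stimulated with recombinant human Sema3C (rhSema3C) at 300 ng/ml and 3 received PBS, both for 48 h. The labels give the replicates as biological replicates and do not say whether they were grown on separate days. The total counts on genes ranged from 68267808 to 89245585 per sample, and mitochondrial transcripts took 4.75% to 5.42% of them with PBS and 3.73% to 3.93% with rhSema3C.

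In the ERK cascade, receptors activate RAS, RAS activates the RAF kinases, RAF activates MEK, and MEK phosphorylates ERK on a threonine and a tyrosine. Phosphatases of the DUSP family remove both phosphates from ERK, Sprouty proteins act between the receptor and RAF, and SPRED proteins bring the RAS inhibitor neurofibromin to the membrane. Because ERK induces these genes, their transcripts are widely read as a record of ERK output, and in hepatic stellate cells the cascade is known for its part in the proliferative response to platelet-derived growth factor.

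The label of the cells was compared with marker genes. Of 11 stellate cell markers, 9 passed the filter on low values (a mean of at least 0.5 FPKM, which are fragments scaled by transcript length and library size), of which 6 were lower with rhSema3C, 1 was higher and 2 did not pass the test applied to the members. The summed FPKM of all 11 was 1645 to 1689 with PBS and 1359 to 1433 with rhSema3C. DES, which encodes the muscle intermediate filament desmin, and COL1A2, which encodes a chain of type I collagen, were below 0.5 FPKM in every sample. The summed FPKM over the samples was 2.62 to 4.14 for the hepatocyte markers, 0.797 to 1.67 for the endothelial, 0.008 to 0.105 for the macrophage and leukocyte and 2.37 to 3.88 for the biliary markers. ALB, PTPRC, CDH5 and EPCAM were also below 0.5 FPKM in every sample. Other markers of these lists were not as low. The hepatocyte marker SERPINA1 had 2.58 to 3.04 FPKM with PBS and 3.52 to 4.14 with rhSema3C, and passed the test as higher. The biliary marker KRT7 had 2.26 to 3.34 and the endothelial marker KDR 0.619 to 0.895 over the samples, and neither passed. VWF, also endothelial and below the filter, had 0.09 to 0.12 with PBS and 0.542 to 0.76 with rhSema3C. The hepatocyte sum was 2.62 to 3.14 with PBS and 3.52 to 4.14 with rhSema3C, and the endothelial sum 0.797 to 1.05 and 1.26 to 1.67. The part of these shifts in the results was not tested.

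Promoter sequences from RefSeq (GRCh38.p14) were matched by symbol for 6 of the 10 members. Entries were not matched for DUSP4, DUSP5, ETV4 and ETV5. The 250 bases before the transcription start are shown, 5′ to 3′ on the strand of the gene, for the member among the 6 that rose furthest (SPRY2) and the one that fell furthest (SPRED2) before the fold changes were corrected for the GC content of the transcripts, after which SPRED1 fell further than SPRED2, and for DUSP1, whose window holds the most motif matches. They lie at chr13:80341127-80341376, chr2:65432600-65432849 and chr5:172771196-172771445, all on the minus strand, and end 1 base before the gene start given in the deposited table. Capitals mark a cAMP response element (TGACGTCA) or a GC box (GGGCGG) on either strand.
SPRY2: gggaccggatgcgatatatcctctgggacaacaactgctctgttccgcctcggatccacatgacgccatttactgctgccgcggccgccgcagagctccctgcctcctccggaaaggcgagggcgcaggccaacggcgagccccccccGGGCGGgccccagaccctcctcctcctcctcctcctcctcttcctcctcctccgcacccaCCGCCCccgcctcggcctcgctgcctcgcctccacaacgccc
SPRED2: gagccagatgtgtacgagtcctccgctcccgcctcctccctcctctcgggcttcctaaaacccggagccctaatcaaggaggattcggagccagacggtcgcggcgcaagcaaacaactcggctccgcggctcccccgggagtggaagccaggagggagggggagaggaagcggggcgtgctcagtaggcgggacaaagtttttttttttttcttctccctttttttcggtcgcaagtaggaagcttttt
DUSP1: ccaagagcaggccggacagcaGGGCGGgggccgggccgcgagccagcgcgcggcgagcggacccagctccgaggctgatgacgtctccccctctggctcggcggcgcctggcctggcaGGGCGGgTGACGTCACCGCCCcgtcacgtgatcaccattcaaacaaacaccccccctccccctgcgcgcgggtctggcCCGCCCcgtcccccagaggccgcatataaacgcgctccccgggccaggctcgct
The DUSP1 window holds the cAMP response element at bases 125 to 118 before the start, which is found in 1.65% of 35116 promoter windows of the same length. A GC box lies 4 times in the DUSP1 window, 2 times in that of SPRY2 and not in that of SPRED2, against at least 1 match in 42.6% of all windows. An ETS motif (CCGGAAG, 8.52% of all windows), an AP-1 motif (TGANTCA, 6.57%), the capicua octamers TGAATGAA or TGAATGGA (2.19%) and the CArG box (1.16%) were searched on both strands and were in none of the 6 windows. A GC box adjoins the cAMP response element of DUSP1 without overlapping it. The GC content was 70.4% in the SPRY2 window, 58.8% in that of SPRED2 and 74.4% in that of DUSP1.

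The comparison of rhSema3C with PBS asked how stellate cells respond to Sema3C, and for these genes whether the transcripts that report ERK output moved. They did not move together. With rhSema3C, 2 members were higher (SPRY2 and DUSP5), 7 were lower (DUSP4, ETV4, SPRED2, SPRED1, DUSP6, DUSP1 and ETV5) and SPRY4 did not pass the test, where passing means a Benjamini-Hochberg adjusted p below 0.05 over all 14178 genes tested with the quasi-likelihood test of edgeR. The same rule called 62.3% of all genes tested (31.7% as higher and 30.6% as lower), so a call by itself was common in this series. The median log2 fold change of the members was -0.21, against 0.02 over all genes tested. The sizes were mostly modest: no member passed a 2-fold change, which 5.37% of the genes tested did, and only DUSP4, ETV4, SPRED2 and SPRY2 moved by more than 0.34 on the log2 scale, the median size over all genes tested. In a culture harvested in bulk, fewer cells that make a transcript and less transcript per cell cannot be told apart.

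**Figure D1:**
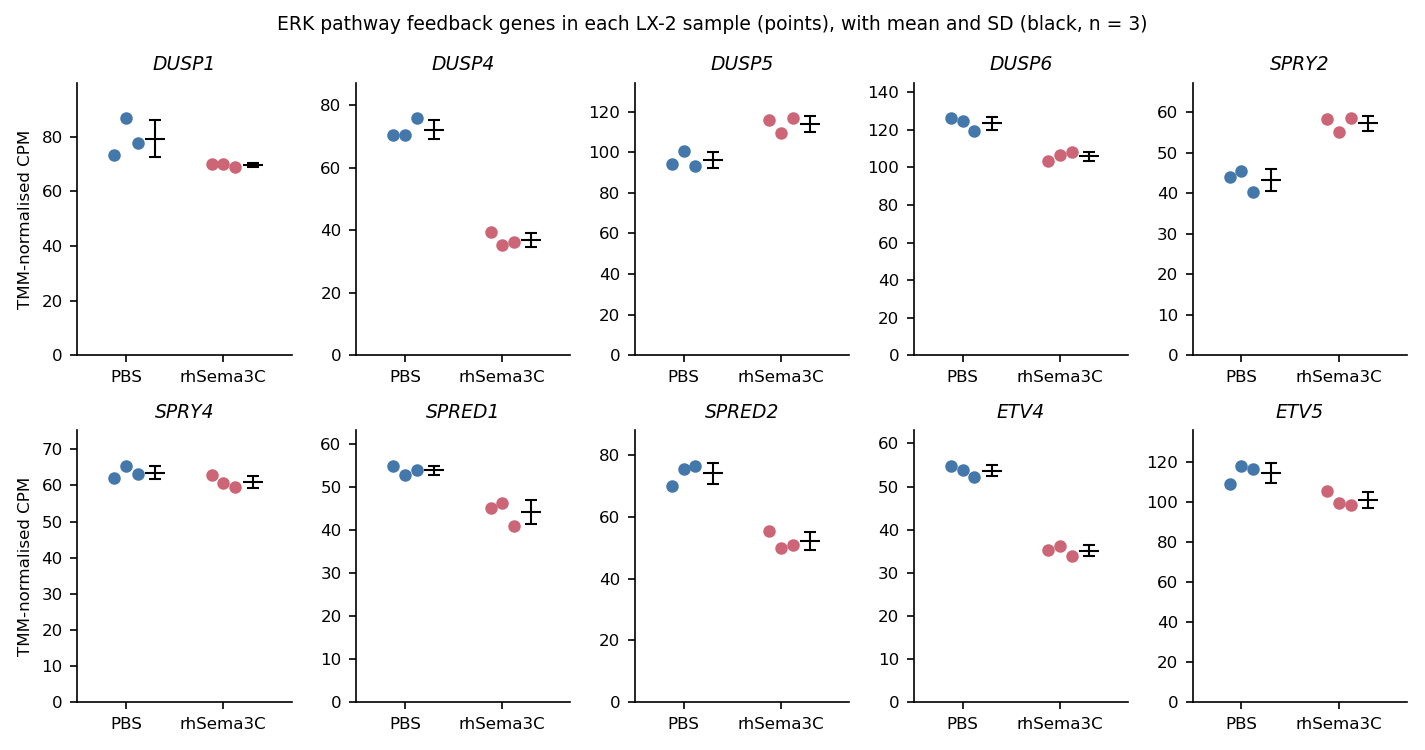
Expression of the 10 members in each sample, as CPM on axes that start at 0. Points are samples, and the black bars give the mean and SD (n = 3). The groups overlap only for SPRY4, and the widest gap is that of DUSP4.

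The phosphatases are described first. DUSP4 (ENSG00000120875, chromosome 8, 29333064 to 29350684 on GRCh38) encodes a nuclear MAP kinase phosphatase. Its expression, in CPM (counts scaled to the library size and TMM factor of each sample), was 70.4, 70.4 and 75.8 with PBS and 39.4, 35.2 and 36.3 with rhSema3C, given here and later in the order of replicates 1, 2 and 3. Every rhSema3C sample lay far below every PBS sample, with no overlap between the groups. The means were 72.2 ± 3.08 and 37.0 ± 2.21 (SD, n = 3 each), and the log2 fold change was -0.96 ± 0.06 (SE, edgeR quasi-likelihood adjusted p = 1.85e-07). This was the largest change among the members and was larger in size than that of 93.4% of the genes tested. With each sample left out in turn it stayed between -1.02 and -0.93.

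DUSP5 (ENSG00000138166, chromosome 10, 110497907 to 110511533) encodes another nuclear phosphatase, which acts on ERK and not on the stress kinases. It moved the other way. It had 94.2, 100.7 and 93.3 CPM with PBS and 115.8, 109 and 117 with rhSema3C, and the highest PBS sample was below the lowest rhSema3C sample. The log2 fold change was 0.25 ± 0.05 (SE, edgeR quasi-likelihood adjusted p = 0.000783), which is a 1.19-fold rise.

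DUSP6 (ENSG00000139318, chromosome 12, 89347235 to 89352501) encodes the cytoplasmic phosphatase of ERK, and DUSP1 (ENSG00000120129, chromosome 5, 172768096 to 172771195) a nuclear phosphatase that also acts on JNK and p38. DUSP6 had 126, 125 and 119.7 CPM with PBS and 103, 107 and 108 with rhSema3C. The groups did not overlap, and the log2 fold change was -0.22 ± 0.04 (SE, edgeR quasi-likelihood adjusted p = 0.000698). DUSP1 had 73.6, 86.8 and 77.9 CPM with PBS, a wider spread than any other member's, and 70.0, 70.0 and 68.8 with rhSema3C. All rhSema3C samples of DUSP1 were below the PBS samples, the nearest by a margin smaller than the spread among the PBS samples. Its log2 fold change of -0.19 ± 0.06 (SE, edgeR quasi-likelihood adjusted p = 0.016) did not pass when PBS replicate 2 was left out (-0.12, edgeR adjusted p = 0.0661) or when rhSema3C replicate 3 was left out (-0.18, edgeR adjusted p = 0.0508). An antisense gene of DUSP6 had 125 to 366 counts, against at least 7872 for DUSP6, and its reads can be told apart only if the counting used strand, which is not given in the sources used here.

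The Sprouty genes differed from each other. SPRY2 (ENSG00000136158, chromosome 13, 80335976 to 80341126), an inhibitor of signalling from receptor tyrosine kinases to RAS and RAF, had 44.0, 45.5 and 40.3 CPM with PBS and 58.2, 55.0 and 58.4 with rhSema3C. All rhSema3C samples were above all PBS samples. The mean rose from 43.3 ± 2.64 to 57.2 ± 1.88 (SD, n = 3 each), or 0.40 ± 0.06 on the log2 scale (SE, edgeR quasi-likelihood adjusted p = 0.000141). This was the largest rise among the members before the correction for GC content, after which DUSP5 (0.46) was above SPRY2 (0.38). SPRY4 (ENSG00000187678, chromosome 5, 142310427 to 142326455), an inhibitor of the same family, had 62.0, 65.5 and 63.2 CPM with PBS and 62.9, 60.5 and 59.7 with rhSema3C. Here the groups overlapped, and the log2 fold change of -0.06 (edgeR quasi-likelihood adjusted p = 0.31) had a 95% interval from -0.16 to 0.05.

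Both SPRED genes, whose proteins act on RAS with neurofibromin, fell. SPRED2 (ENSG00000198369, chromosome 2, 65310851 to 65432599) had 70.0, 75.5 and 76.4 CPM with PBS and 55.3, 49.99 and 51.0 with rhSema3C. The gap between the groups was wider than the range within either group. The log2 fold change was -0.51 ± 0.06 (SE, edgeR quasi-likelihood adjusted p = 1.61e-05). SPRED1 (ENSG00000166068, chromosome 15, 38252836 to 38357249) had 55.0, 52.9 and 54.0 CPM with PBS and 45.1, 46.3 and 41.1 with rhSema3C, again with no overlap. Its log2 fold change was -0.29 ± 0.06 (SE, edgeR quasi-likelihood adjusted p = 0.00142).

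ETV4 and ETV5 encode ETS factors of the PEA3 group, which ERK induces and which carry part of its transcriptional output. ETV4 (ENSG00000175832, chromosome 17, 43527844 to 43546340) had 54.8, 53.9 and 52.3 CPM with PBS and 35.2, 36.3 and 33.8 with rhSema3C. The replicates were close in both groups, and the groups did not overlap. The log2 fold change was -0.61 ± 0.06 (SE, edgeR quasi-likelihood adjusted p = 3.41e-06). ETV4 lies within the span of DHX8 on the other strand, which had 6760 to 8744 counts, more than the 2816 to 4692 of ETV4, so part of the ETV4 count is uncertain if the counting ignored strand. ETV5 (ENSG00000244405, chromosome 3, 186046314 to 186110318) had 108.7, 118 and 116 CPM with PBS and 106, 99.3 and 98.2 with rhSema3C, which is a small step down with no overlap. Its log2 fold change was -0.18 ± 0.05 (SE, edgeR quasi-likelihood adjusted p = 0.00678), and it shares part of its span with DGKG on the same strand (412 to 747 counts).

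Of the 10 members, 9 had groups that did not overlap in CPM, and so did 67.8% of all genes tested. The falls of DUSP1, ETV5, DUSP6 and SPRED1 depended on the scaling between samples. In FPKM, the groups overlapped for DUSP1 (36.98 ± 2.95 with PBS and 34.8 ± 0.251 with rhSema3C, SD, n = 3 per group) and for ETV5 (18.6 ± 0.764 and 17.6 ± 0.645). With library size alone in place of the TMM factors, the median log2 fold change of all genes moved from 0.02 to 0.13, and with values rescaled to TPM (FPKM rescaled to the same sum in every sample, tested with limma) it moved to 0.23. The FPKM of all genes summed to 288169 to 297339 with PBS and 265983 to 268533 with rhSema3C. On the TPM scale DUSP1, DUSP6 and ETV5 had log2 fold changes of 0.04, 0.0069 and 0.05 (limma adjusted p = 0.599, 0.886 and 0.455), SPRED1 of -0.06 (0.385) and SPRY4 of 0.16 (0.0189). Relative to the median of all genes under the same scaling, all of these but SPRY4 stayed at or below -0.18 under 4 scalings (TMM, DESeq2 size factors, library size, TPM), and SPRY4 stayed between -0.08 and -0.06. A change of scaling moves the genes and their median by nearly the same amount. These relative values could therefore hardly differ between scalings, and they do not show which scaling is right. The share of calls that were higher was 50.9% over all genes with TMM, 62.3% with library size alone and 74.1% with TPM. DUSP4, SPRED2, ETV4, SPRY2 and DUSP5 kept their direction and passed the test in each of the 18 alternative fits.

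**Figure D2:**
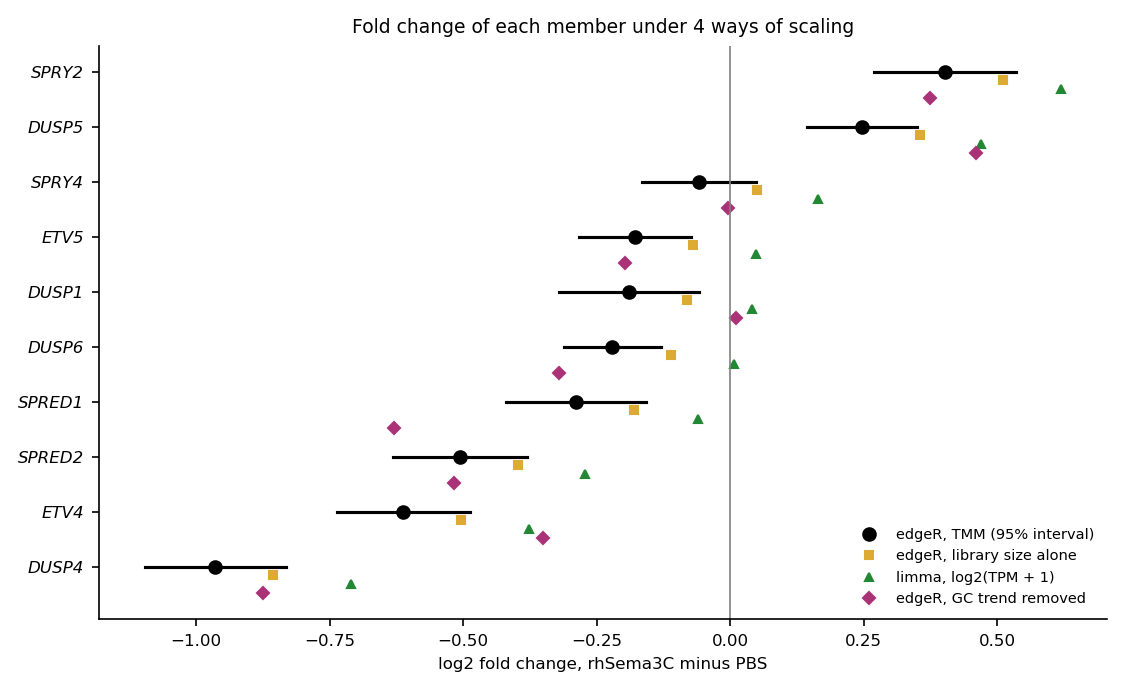
Log2 fold change of each member, rhSema3C minus PBS, from the edgeR fit with TMM factors (black, with the 95% interval), from library size alone (yellow), from limma on log2(TPM + 1) (green) and with the trend in GC content removed (purple). Library size alone and TPM shift all members upwards, while removing the GC trend shifts some up and others down. DUSP4, ETV4 and SPRED2 stay below 0 and DUSP5 and SPRY2 above 0 in each fit shown.

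The fold changes of this series also moved with the base composition of the transcripts. Across the 14096 genes tested with an annotated transcript, Spearman's rho between the log2 fold change and the GC content of the longest transcript was -0.48, given as a description, since genes share their libraries. In 10 bins of equal size, the median log2 fold change went from 0.33 in the bin with the lowest GC content to -0.30 in the bin with the highest. The members ran from 38.9% GC (SPRED1) to 60.8% (ETV4). After each library's trend with GC content was removed, which was added after the data had been seen, 2 members were higher and 6 lower. Of all 14096 genes in the same fit, 3460 were higher and 4428 lower. DUSP1 then had a log2 fold change of 0.01 (adjusted p = 0.868) and was no longer called. ETV4 went from -0.61 to -0.35 (adjusted p = 0.000313) and DUSP4 from -0.96 to -0.88 (adjusted p = 1.43e-07), both still lower. SPRED1 went further down, from -0.29 to -0.63 (adjusted p = 2.28e-06), and DUSP5 further up, from 0.25 to 0.46 (adjusted p = 7.72e-07). The adjusted p-values are from edgeR's quasi-likelihood test, and what made the fold changes follow GC content was not tested.

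Levels were compared between members on the FPKM scale, which accounts for transcript length. With PBS, DUSP1 (36.98 ± 2.95 FPKM) and DUSP5 (35.5 ± 1.29) were the most abundant and overlapped, followed by DUSP6 (30.0 ± 0.762), ETV5 (18.6 ± 0.764) and ETV4 (14.3 ± 0.325). SPRY2 (12.6 ± 0.711) and SPRED2 (12.6 ± 0.584) overlapped, as did DUSP4 (9.31 ± 0.434) and SPRY4 (9.09 ± 0.208), and SPRED1 was lowest (6.53 ± 0.159). With rhSema3C, DUSP5 stood alone at the top (45.3 ± 1.62 FPKM), above DUSP1 (34.8 ± 0.251) and DUSP6 (27.7 ± 0.694). SPRY2 (17.9 ± 0.596) reached the level of ETV5 (17.6 ± 0.645), and the samples of ETV4 (10.0 ± 0.340) overlapped those of SPRED2 (9.52 ± 0.494). SPRY4 (9.37 ± 0.229) also overlapped SPRED2. DUSP4 (5.12 ± 0.296) moved to the last place, where its samples overlapped those of SPRED1 (5.74 ± 0.346). All values are mean ± SD with n = 3.

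The sum over the phosphatases hid opposite changes. The summed FPKM of DUSP1, DUSP4, DUSP5 and DUSP6 was 109, 116 and 110.1 with PBS and 113, 111 and 114 with rhSema3C, so the groups overlapped. Within that sum, DUSP5 took 31.5% to 32.0% with PBS and 39.1% to 40.6% with rhSema3C, and DUSP4 took 7.75% to 8.91% and 4.38% to 4.81%. The summed FPKM of SPRY2 and SPRY4 went from 20.9 to 22.5 with PBS to 26.5 to 27.8 with rhSema3C. For SPRED1 and SPRED2 together it was 18.6 to 19.6 and then 14.7 to 15.9, and for ETV4 and ETV5 together 32.3 to 33.3 and then 26.9 to 28.4, with no overlap in either case. These sums are on the FPKM scale and give no test.

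Ratios between related members within a library do not depend on the scaling between libraries, and 5 were compared. The ratio of SPRY2 to SPRY4 was 1.45, 1.42 and 1.30 with PBS and 1.89, 1.86 and 1.996 with rhSema3C, a 1.38-fold higher ratio with no overlap. The ratio of DUSP1 to DUSP4 was 3.77, 4.45 and 3.72 with PBS and 6.41, 7.19 and 6.85 with rhSema3C. For DUSP5 to DUSP6 the values were 1.14, 1.23 and 1.19, and then 1.7045, 1.56 and 1.64. The ratio of ETV4 to ETV5 went the other way, from 0.828, 0.7499 and 0.738 to 0.548, 0.5999 and 0.565. SPRED1 to SPRED2 changed least, from 0.558, 0.498 and 0.502 to 0.580, 0.659 and 0.573. Before any correction for GC content, in each of the 5 ratios all samples of one group were above all of the other, which gave p = 0.1 (two-sided exact permutation test, 0.1 after adjustment over the 5 ratios). This is the smallest p that 3 samples against 3 allow, so the design could not reach 0.05. A ratio within a library still carries the trend with GC content where the members differ in it. With each library's GC trend removed, the ratio of SPRED1 to SPRED2 turned, from 0.608, 0.581 and 0.557 with PBS to 0.544, 0.549 and 0.519 with rhSema3C, and its log2 difference went from 0.22 to -0.11. That of ETV4 to ETV5 shrank from -0.43 to -0.15, and its groups then overlapped (p = 0.2, two-sided exact permutation test). The log2 differences of the other ratios kept their direction, at 0.38 for SPRY2 to SPRY4, 0.89 for DUSP1 to DUSP4 and 0.78 for DUSP5 to DUSP6.

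**Figure D3:**
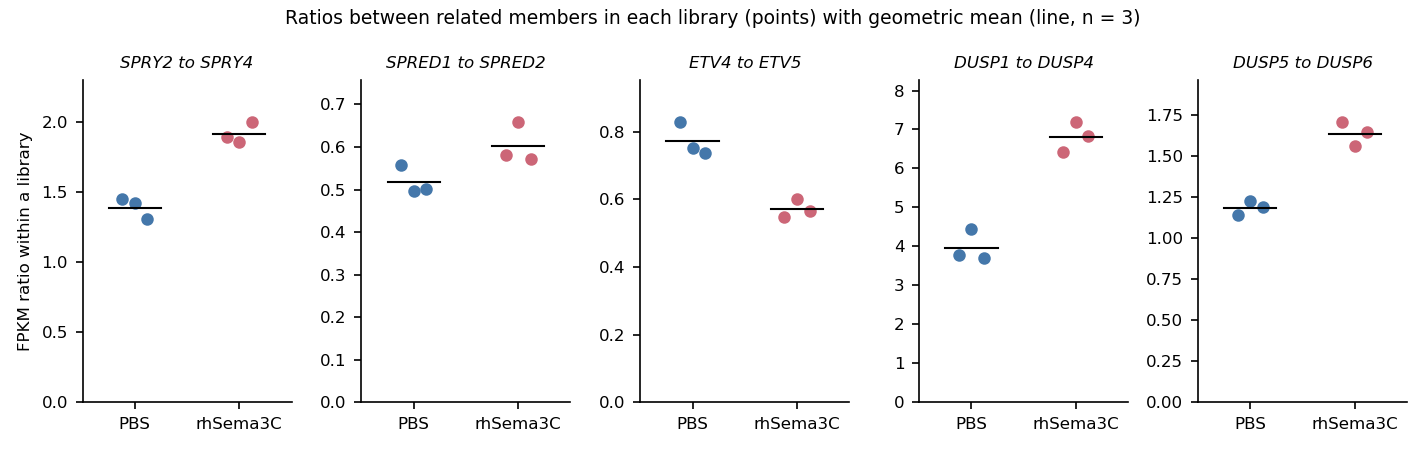
Ratio of the FPKM values of related members within each library, on axes that start at 0. Points are libraries and lines the geometric mean of 3. The ratio of ETV4 to ETV5 is lower in all rhSema3C libraries, and the other 4 ratios are higher. The values are not corrected for GC content, which turns the ratio of SPRED1 to SPRED2.

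Further genes with feedback roles were counted from a list of 12. Beside the counts of this and the following lists, 31.7% of all genes tested were higher and 30.6% lower. With the GC trend removed, 3460 of 14096 genes were higher and 4428 lower. Of the 12, DUSP2, DUSP9, SPRY1, SPRY3 and IL17RD were below the filter on low values, with at most 0.612 FPKM in any sample. In FPKM, every rhSema3C sample of SPRY1, SPRY3 and IL17RD was above every PBS sample, while the groups of DUSP2 and DUSP9 overlapped. Of the 7 genes that passed the filter, 4 were higher and 3 lower, and the median log2 fold change was 0.22. Without the filter, 6 of the list were higher and 3 lower. The ETS factor ETV1 (0.61), ERRFI1, which encodes an inhibitor of the EGF receptor (0.50), and RASA1, a GTPase-activating protein for RAS (0.45), had the largest rises on the log2 scale. DUSP7, a cytoplasmic phosphatase of ERK like DUSP6, fell from 47.5 ± 2.42 to 30.4 ± 2.12 CPM (SD, n = 3 each), or -0.65 on the log2 scale (edgeR quasi-likelihood adjusted p = 1.28e-05). SPRED3 had a log2 fold change of -0.39 and LZTR1, which encodes an adaptor for the degradation of RAS, of -0.32. With the GC trend removed, 2 of the 7 were higher (ERRFI1 and RASA1) and 1 lower (DUSP7). Among the JNK and p38 phosphatases, DUSP16 rose, with a log2 fold change of 0.70, while DUSP8 (0.08) and DUSP10 (0.15) did not pass the test. With the GC trend removed DUSP16 was at 0.62, and DUSP8 passed at 0.32 (edgeR quasi-likelihood adjusted p = 0.0435).

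Of 17 genes of the cascade from RAS to ERK, 4 were higher, 8 lower and 5 did not pass, and their median log2 fold change was -0.0058. SHC1, which encodes an adaptor that links receptors to RAS, fell from 403 ± 2.89 to 229.6 ± 7.82 CPM (SD, n = 3 each), or -0.81 on the log2 scale (edgeR quasi-likelihood adjusted p = 4.12e-08). HRAS fell by 0.79 on the log2 scale and ARAF by 0.33. BRAF (0.53), SOS2, an activator of RAS (0.26), and NRAS (0.23) had the largest rises. This list moved with GC content. With the GC trend removed, 1 gene was higher and 8 were lower, SHC1 and HRAS kept log2 fold changes of -0.59 and -0.56, and those of NRAS, SOS2 and ARAF were -0.12, -0.06 and -0.08. BRAF, the gene still higher, went from 0.53 to 0.21 (edgeR quasi-likelihood adjusted p = 0.0459), and did not pass with length also removed (0.19, adjusted p = 0.06). MAP2K1, which encodes MEK1 and is named for its place in the cascade, had a log2 fold change of -0.0058 (edgeR quasi-likelihood adjusted p = 0.94).

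Of 13 other genes that ERK induces, 9 were lower and 3 higher, with a median log2 fold change of -0.54, and with the GC trend removed 8 were lower and 4 higher, with a median of -0.30. Over all genes tested, 30.6% were lower and 31.7% higher before the GC trend was removed. CCND1, which encodes cyclin D1, fell from 1271 ± 24.3 to 423 ± 11.4 CPM (SD, n = 3 each), or -1.59 on the log2 scale (edgeR quasi-likelihood adjusted p = 4.41e-10) and -1.53 with the GC trend removed. SPHK1, a sphingosine kinase, fell by 1.06 on the log2 scale and HBEGF, a ligand of the EGF receptor, by 0.99. PHLDA1 rose from 485 ± 7.15 to 749 ± 4.15 CPM (SD, n = 3 each), or 0.63 on the log2 scale (edgeR quasi-likelihood adjusted p = 1.25e-07). EPHA4 (0.31) and FOSL1 (0.21), an AP-1 subunit, were the other rises. With the GC trend removed, EPHA4 did not pass (0.13, edgeR quasi-likelihood adjusted p = 0.292), PHLDA1 was at 0.43 and FOSL1 at 0.47, and the other 2 genes then higher were not among these rises. DUSP4, ETV4, HBEGF, SPHK1 and CCND1 were thus lower while SPRY2, DUSP5, PHLDA1 and FOSL1 were higher in the same samples.

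Of 11 ETS factors and partners of capicua, the repressor that holds genes such as ETV4 and ETV5 down until ERK releases it, 5 were higher and 4 lower. Capicua itself, CIC, had 147.5 ± 14.9 CPM with PBS and 138 ± 6.36 with rhSema3C (SD, n = 3 each) and did not pass the test (log2 fold change -0.10, edgeR quasi-likelihood adjusted p = 0.23). ELK4, a partner of serum response factor, rose from 18.7 ± 1.22 to 34.1 ± 1.17 CPM (SD, n = 3 each), or 0.87. The ETS repressor ETV3 (0.54) and ETS2 (0.47) also rose. The ETS repressor ERF fell by 0.40 on the log2 scale, ELK3 by 0.39 and ELK1 by 0.38. With the GC trend removed, 3 were higher and 4 lower, and ELK4, ETV3 and ETS2 had log2 fold changes of 0.52, 0.38 and 0.46. ERF and ELK1 were then at -0.16 and -0.15, smaller falls than before, while ELK3 was at -0.65.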

How the data were processed

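Libraries were made with a SMARTer mRNA-seq kit and sequenced on an Illumina NovaSeq instrument, and the study's methods name Cufflinks and cuffmerge for its comparison. For each gene and sample, the deposited table held a count (whole numbers) and the FPKM derived by the authors, without pooling. The aligner, counter, strandedness of counting and genome build are not given in the sources used here. The coordinates lie on GRCh38: 19746 of the 32887 genes shared by ID with GENCODE v29 had identical positions.

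Counts of 14178 genes with mean FPKM of 0.5 or more entered edgeR 4.0.16 (quasi-likelihood test, TMM factors 0.958 to 1.04, R 4.3.3) with Benjamini-Hochberg adjustment over all of them. The SE is the log2 fold change divided by the square root of F. Replicates within a group differed by more than counting noise (chi-square per degree of freedom 12.6 to 20.4). Reads carried no molecular identifiers in the table, so counting error is a lower limit. Alternatives used limma 3.58.1 and DESeq2 1.42.0. In a further alternative, each library's trend with the GC content of the longest GENCODE v29 transcript was removed by a natural spline. The edgeR, limma and DESeq2 fits were tested on simulated data in which few genes changed and no trend with GC content was built in. Such data cannot show how the fits behave where most genes are called, as they were here. The GC correction, the ratio test and the motif search were not.

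The members and lists were chosen with earlier results of these data known. All members are named. From each other pathway list, the 3 largest rises and 3 largest falls past the test without overlap are named. MAP2K1, CIC, DUSP8, DUSP10, DHX8, DGKG, the genes below the filter and the markers fall outside this rule. Some genes counted in the lists are not reported here by name.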

Additional observations from a re-analysis of the deposited data

How the results depend on the processing

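The alternatives covered scaling, test, filter, abundant genes, replicate block, base composition (chosen after seeing the data) and each sample left out. Members called higher numbered 3 with TPM, where SPRY4 joined, and 2 in the other fits. Members called lower numbered 3 with TPM, 5 with library size alone, limma on FPKM or a mean FPKM of at least 5, and 6 to 7 otherwise. All genes higher and lower numbered 6934 and 2428 with TPM, and 2630 and 2602 at a mean FPKM of at least 5, where fewer genes were tested. Of all calls, 50.9% were higher with TMM, 62.3% with library size alone, 61.3% and 61.2% with limma on log2(FPKM + 1) and log2(FPKM + 0.1), 74.1% with TPM and 43.9% with the GC trend removed. With TPM, the log2 fold change was 0.0405 for DUSP1, 0.0069 for DUSP6, 0.048 for ETV5 and 0.1643 for SPRY4. DUSP1 was at 0.0109 with the GC trend removed and 0.0117 with GC content and length removed. SPRY4 was at 0.0509 with library size alone, 0.0402 and 0.0441 with limma on log2(FPKM + 1) and log2(FPKM + 0.1), 0.0474 at a mean FPKM of at least 5 and 0.0066 with GC content and length removed. The causes were not tested.

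With TPM, 1 of the other feedback genes, 2 of the RAS to ERK cascade and 2 of the ETS list were lower, and 9 of the cascade and 5 of the ERK-induced list were higher. The cascade had 8 genes higher with library size alone and 7 with limma on FPKM at either pseudocount, but 1 with the GC trend removed and 0 with GC content and length removed (edgeR, TMM: 4). Other feedback genes numbered 2 higher with either GC correction and 1 lower with GC content removed. The ETS list had 3 genes higher with GC content removed and 2 at a mean FPKM of at least 5. JNK and p38 phosphatases numbered 2 higher with library size alone, limma on FPKM or TPM and either GC correction, and 1 to 2 with each sample left out (2 without rhSema3C replicate 3). Ratios of counts gave the same log2 differences to within rounding, which was fixed in advance because transcript length and library size cancel. All 5 ratios kept their direction with each sample left out. With the GC trend removed, 4 kept it, and SPRED1 to SPRED2 turned to a log2 difference of -0.1149 (-0.1402 with GC content and length removed).

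Deviations of same-numbered samples from their group means correlated at -0.004, 0.058 and -0.027, and not every sample correlated best with its own number, so the samples were not treated as paired. With the replicate number as a block, 4221 genes were higher and 4120 lower, and 2 members were higher and 7 lower.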

Other observations

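The annotation in the deposited table gave 70 genes the term negative regulation of the ERK cascade, a term picked after the members' values were seen. It holds 7 members (DUSP1, DUSP4, DUSP6, SPRED1, SPRED2, SPRY2 and SPRY4) and leaves out DUSP5. Of its 54 genes tested, 13 passed as higher and 24 as lower in the edgeR comparison, with a median log2 fold change of -0.13. These counts include the members it holds. The same comparison called 31.7% of all genes tested as higher and 30.6% as lower, or 62.3% together. The term for MAP kinase phosphatase activity holds the 4 phosphatases among 10 genes tested, of which 2 were higher and 5 lower. The median log2 fold change of these 10 was -0.056. DUSP5 is among the higher and DUSP1, DUSP4 and DUSP6 are among the lower. Neither term was counted with the GC trend removed.

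The genes whose centred log2 CPM over the 6 samples lay closest to that of SPRY2, by Euclidean distance, were TIPARP (0.043), CBFA2T2 (0.060) and IFT140 (0.061). Among the closest to DUSP4 were GALNT6 (0.062) and SF3B4 (0.084). This is a description of 6 samples in 2 groups and says nothing of shared control.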
